A study of Mus musculus with 8 samples.

Results

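The forkhead transcription factor genes Foxp1, Foxp4, Foxo1, Foxo3, Foxo4, Foxk1 and Foxk2 were followed in granulocytic myeloid-derived suppressor cells (Gr-MDSCs) treated with Dactolisib, Dasatinib or DMSO. All probe sets that the array annotation gives to a single gene of these 7 were taken, which was 28 of the 45101 probe sets on the array. Foxp1 had 8 of them, Foxk2 5, Foxo1 4, Foxp4, Foxo3 and Foxk1 3 each, and Foxo4 2. Another probe set, shared by Foxo3 with a different gene, was left out. The 7 genes were picked with earlier results of Dactolisib on these same arrays known, so their values in the comparisons of Dactolisib with DMSO and with Dasatinib are a description, no p-value of a member is given for them, and counts of members past a threshold there are no evidence. Dasatinib against DMSO was not itself used in the choice and was tested. Its arrays are also those of the comparisons that were used, so this test is not independent of the choice.

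Gr-MDSCs are immature myeloid cells of the neutrophil kind that suppress T cells in tumors. They came from prostate tumors of male CPPSML mice, which carry PB-Cre+ together with PtenL/L, p53L/L and Smad4L/L and the reporter alleles mTmGL/+ and LSL-LucL/+. The probasin promoter drives this Cre in prostate epithelium, so the tumor cells, not the Gr-MDSCs, are the cells in which it acts. All mice, 8 to 12 weeks old at the start and 12 to 16 weeks by the sample labels, were castrated at a tumor volume of 150 mm3 and fed enzalutamide for 4 weeks, and Gr-MDSCs were then sorted with magnetic beads as CD11b+ Ly6G+ Ly6C low cells. The cells were kept for 6 h with DMSO (n = 4, numbered 2 to 5), 0.1 uM Dactolisib (n = 2) or 0.1 uM Dasatinib (n = 2), so castration, enzalutamide and genotype were the same in every group. Dactolisib is an inhibitor of PI3K and mTOR, and Dasatinib inhibits Src and Abl family tyrosine kinases. No source says that the arrays of a group came from separate mice or cultures, so p-values here take in only how far these samples scatter, and that scatter may be technical.

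Forkhead proteins bind DNA through a winged-helix domain and differ in what controls them. The FoxO proteins (Foxo1, Foxo3, Foxo4) are phosphorylated by Akt when PI3K is active and are then held in the cytoplasm, and when Akt is inactive they enter the nucleus and switch on genes of cell cycle arrest, apoptosis, autophagy and antioxidant defence. Foxk1 and Foxk2 act mostly as repressors, are controlled by insulin and mTOR signalling and restrain autophagy genes. Foxp1 and Foxp4 are repressors that pair through a leucine zipper, and Foxp1 is known for keeping T cells quiescent and for its part in B cell and monocyte differentiation. The arrays measured RNA, which says nothing about phosphorylation or the place of these proteins in the cell.

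Foxp1 is the member on which the results turn, and it is shown with the DNA before its start sites because forkhead proteins bind the letters TAAACA, which read TGTTTA on the opposite strand. RefSeq (GRCm38.p6) gave 7 windows of 250 bases before a start for 5 of the members, and Foxo4 and Foxk1 had no entry. Foxp1 had 3 windows on the minus strand of chromosome 6, and each of them held the letters, which are printed in capitals in the direction of the gene.
Foxp1, chr6:99520994-99521243: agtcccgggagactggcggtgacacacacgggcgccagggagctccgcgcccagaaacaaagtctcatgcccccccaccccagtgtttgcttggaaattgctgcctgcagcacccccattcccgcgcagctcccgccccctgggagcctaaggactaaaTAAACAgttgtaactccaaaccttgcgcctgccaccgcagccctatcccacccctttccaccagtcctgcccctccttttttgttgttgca
Foxp1, chr6:99266516-99266765: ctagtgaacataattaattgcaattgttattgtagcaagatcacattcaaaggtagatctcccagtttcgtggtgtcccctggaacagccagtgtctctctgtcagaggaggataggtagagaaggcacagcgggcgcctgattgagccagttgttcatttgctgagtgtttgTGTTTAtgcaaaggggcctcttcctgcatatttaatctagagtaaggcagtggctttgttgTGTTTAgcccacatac
Foxp1, chr6:99028299-99028548: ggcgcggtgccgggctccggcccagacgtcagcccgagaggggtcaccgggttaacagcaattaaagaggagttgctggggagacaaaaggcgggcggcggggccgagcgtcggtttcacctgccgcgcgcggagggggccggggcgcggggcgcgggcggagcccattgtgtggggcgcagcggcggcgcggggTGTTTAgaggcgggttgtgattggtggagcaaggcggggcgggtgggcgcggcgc
The letters began 91 bases before the start in the first window, 77 and 16 bases before it in the second, and 55 bases before it in the last. None of the 4 windows of Foxp4, Foxo1, Foxo3 and Foxk2 held them. Of all 32851 windows of this length in the table, 12.03% did. The longer letters GTAAACA, or on the opposite strand TGTTTAC, contain the shorter ones and were in 0 of the 7 windows and in 3.166% of all. A match describes the sequence only and was not tied to binding.

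The arrays fell into 3 sets that cross the treatments. Set A held Dactolisib 1, DMSO 2 and DMSO 4, set B Dactolisib 2, Dasatinib 2 and DMSO 3, and set C Dasatinib 1 and DMSO 5. Arrays of the same set correlated at r of at least 0.987 over the tested probe sets and arrays of different sets at r of at most 0.98, across probe sets. The granulocyte markers were present throughout: all 16 of 19 that were measured lay above background on all 8 arrays, with a summed level (log2 of the summed signal) of 16.13 to 16.49, and the calprotectin genes S100a9 (13.69 or more everywhere) and S100a8 (13.53 or more) were the brightest. Single granulocyte markers were not all even between the sets. Ltf read 9.29 to 9.51 in set B and 12.30 to 12.94 in sets A and C, and Padi4 6.03 to 6.37 and 6.99 to 7.73. Ngp ranged from 6.695 to 10.45, while Clec4d, at 13.42 to 13.56, was nearly level. The brightest markers of other cells were Csf1r and Cd68 of monocytes and macrophages (log2 signals 11.43 to 12.47 and 10.99 to 11.78), Cldn4 and Krt8 of epithelium (7.89 to 13.02 and 8.09 to 13.37), Col1a2 and Col3a1 of fibroblasts (up to 9.72 and 9.82), Cd4 and Cd3e of lymphocytes (up to 7.08 and 5.95) and Pecam1 and Kdr of endothelium (up to 6.31 and 6.08). The summed level of 17 epithelial markers was 10.86 to 11.20 on the arrays of set B, 13.20 to 13.41 on those of set A and 15.59 to 15.62 on those of set C, and 14 of the 17 were above background on every array. Above background on all 8 arrays were also 10 of 12 measured markers of monocytes and macrophages and 5 of 10 of lymphocytes. For fibroblasts it was 4 of 10 and for endothelium 4 of 8. The summed level of the fibroblast markers was 8.69 to 8.91 in set B, 10.65 to 10.81 in set A and 10.69 to 11.67 in set C. Because epithelial RNA and other markers differed between the sets, each comparison is given without a block and within the sets. Within sets a Dactolisib array is set against DMSO of its own set, which leaves out set C, and a Dasatinib array likewise, which leaves out set A.

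Of the 28 forkhead probe sets, 20 lay above background on all 8 arrays, where background is the 95th percentile of 82 probe sets of olfactory, vomeronasal and taste receptor genes on the same array (log2 signal 4.78 to 5.18). All 7 genes had at least 1 such probe set, and 3 probe sets were above background on no array: 1 each of Foxp4, Foxo1 and Foxk2. Foxp1 had 6 of 8 probe sets above background everywhere, Foxk2 4 of 5, Foxo1 3 of 4, Foxo3 2 of 3, Foxo4 2 of 2, Foxk1 2 of 3 and Foxp4 1 of 3. All 28 passed the filter on low signal. A gene is led below by its probe set with the highest mean signal, and levels of different probe sets are not compared, since each binds with its own efficiency. The probe sets of a gene are not separate measurements where they share a source sequence: the 8 of Foxp1 were designed on 4 sequences, the 4 of Foxo1 on 2, the 3 of Foxo3 on 2 and the 5 of Foxk2 on 3.

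**Figure D1:**
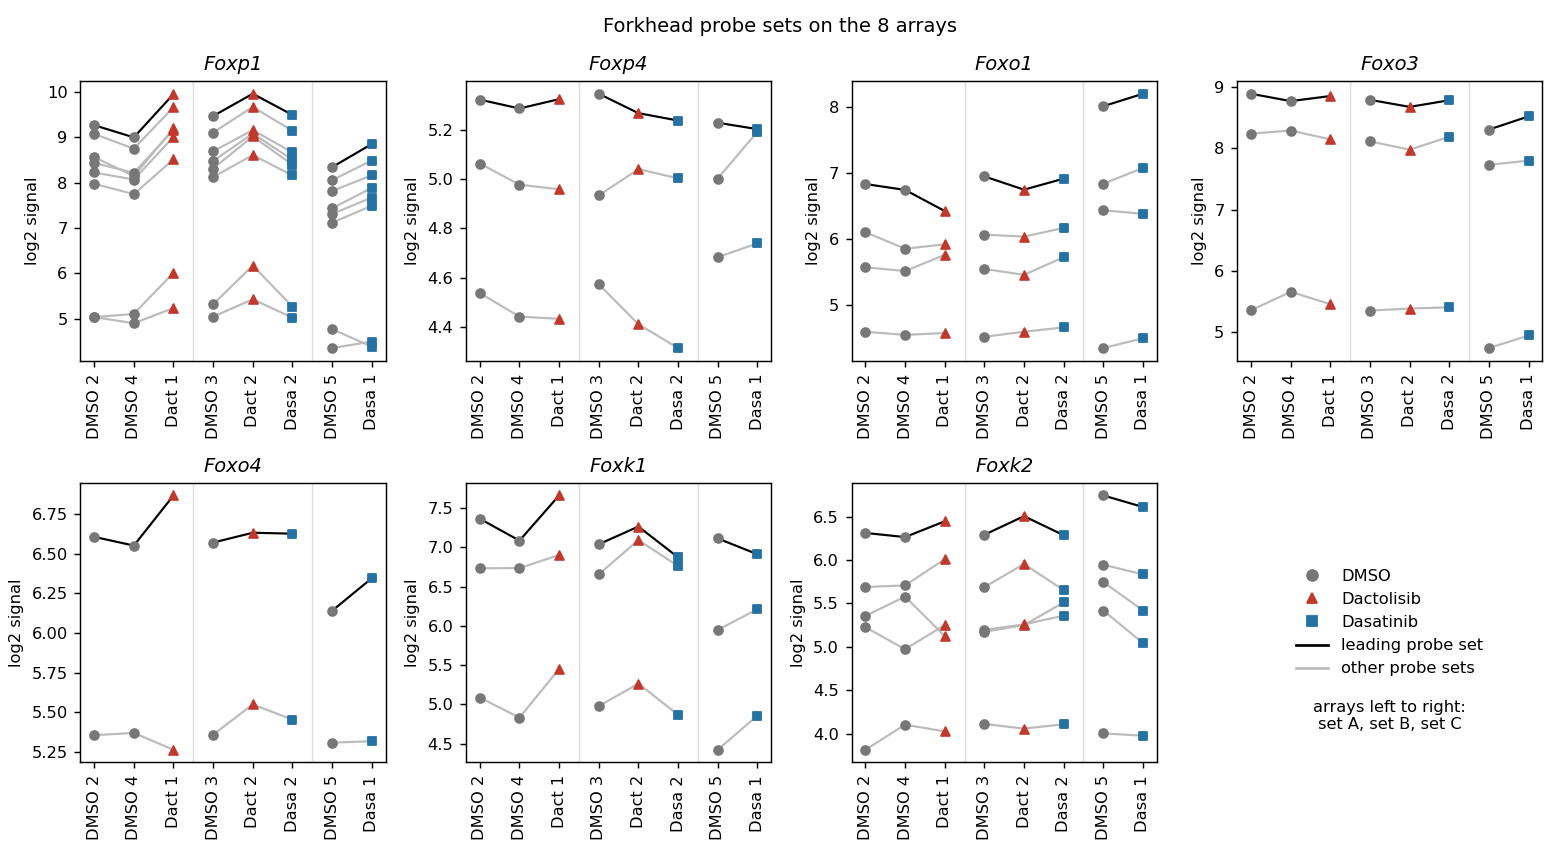
Log2 signal (y axis) of all 28 probe sets of the 7 forkhead genes on the 8 arrays (x axis), grouped from left to right into sets A, B and C. Points are arrays, coloured by treatment, and a line joins the arrays of a set for each probe set, black for the leading one. In the Foxp1 panel the Dactolisib arrays lie above DMSO of their set in all 8 probe sets, and in the Foxo1 panel the 2 arrays of set C lie above all others in the 3 brightest probe sets.

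Foxp1 was higher on both Dactolisib arrays than on any DMSO array in all 8 of its probe sets. The leading probe set, 1435222_at, had log2 signals of 9.27, 9.47, 9.002 and 8.35 on DMSO 2 to 5, 9.96 and 9.97 on the Dactolisib arrays, and 8.86 and 9.50 on Dasatinib 1 and 2. Both Dactolisib arrays stood above every other array, while the Dasatinib arrays fell within the DMSO range or, for Dasatinib 2, just above its highest array. By group mean the order was Dactolisib at 9.96 ± 0.005 (SD, n = 2), Dasatinib at 9.18 ± 0.46 (SD, n = 2) and DMSO at 9.02 ± 0.49 (SD, n = 4), and Dasatinib and DMSO differed by less than their spread. In bulk RNA of sorted cells, a higher level per cell and a larger share of cells that express the gene cannot be told apart.

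Against DMSO, leading Foxp1 signal under Dactolisib was higher by 0.94 ± 0.31 (log2 difference ± SE) without a block and by 0.68 ± 0.12 within sets, a fold of 1.60. Dactolisib 1 exceeded the mean of its 2 DMSO arrays by 0.82 and Dactolisib 2 exceeded DMSO 3 by 0.49. The DMSO arrays of set A differed from each other by 0.27, and the DMSO levels of the sets ranged over 1.13. The difference on either Dactolisib array was thus larger than the gap between the DMSO arrays of set A, and smaller than the range of DMSO between sets. Set B, that of Dactolisib 2, holds a single DMSO array and so gives no such gap. Without DMSO 5, the array with the lowest Foxp1 signal and a high epithelial level, the value without a block was 0.71 ± 0.15.

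The other Foxp1 probe sets were also higher under Dactolisib. The next 5 in brightness were higher by 0.58 to 0.80 within sets. They followed the leading one over the 8 arrays at r = 0.987 to 0.996, a description with treatments and sets mixed. The dimmer 1438802_at and 1443258_at followed it at r = 0.877 and 0.953. Probe set 1438802_at was dim in DMSO and had the largest difference of the 8 within sets. Its log2 signal was 5.03, 5.32, 5.11 and 4.77 on DMSO 2 to 5, 6.02 and 6.17 under Dactolisib, and 4.38 and 5.27 under Dasatinib. It was above background on 6 of 8 arrays, and the Dactolisib arrays again stood clear of all others. Its difference from DMSO was 1.04 ± 0.17 without a block and 0.91 ± 0.079 within sets, a fold of 1.88. Probe set 1443258_at, above background on 4 arrays, differed by 0.32 ± 0.085 within sets.

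Foxp4, the relative with which Foxp1 can pair, was near background and nearly level. Its leading probe set 1431437_at read 5.32, 5.35, 5.29 and 5.23 on DMSO 2 to 5, 5.33 and 5.27 under Dactolisib, and 5.20 and 5.24 under Dasatinib. The groups overlapped, with means of 5.30 ± 0.051 (SD, n = 4) for DMSO, 5.30 ± 0.041 (SD, n = 2) for Dactolisib and 5.22 ± 0.025 (SD, n = 2) for Dasatinib. The difference of Dactolisib from DMSO within sets was -0.022 ± 0.078 (95% interval -0.20 to 0.16). In 1431088_at, above background on no array, both Dactolisib arrays (4.43 and 4.41) lay below the lowest DMSO array (4.44).

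Among the FoxO genes, whose proteins Akt holds out of the nucleus, no RNA stood clear of DMSO in all probe sets. The leading Foxo1 probe set, 1416983_s_at, read 6.83, 6.95, 6.74 and 8.01 on DMSO 2 to 5, 6.42 and 6.75 under Dactolisib, and 8.19 and 6.91 under Dasatinib. The high arrays were DMSO 5 and Dasatinib 1, the 2 arrays of set C, whatever their treatment. Group means were 7.55 ± 0.91 (SD, n = 2) for Dasatinib, 7.13 ± 0.59 (SD, n = 4) for DMSO and 6.58 ± 0.23 (SD, n = 2) for Dactolisib, and neighbours in this order differed by less than their spread.

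Within sets Foxo1 differed from DMSO by -0.29 ± 0.084 under Dactolisib in that probe set. The 2 other probe sets above background gave -0.047 ± 0.097 (1416981_at) and 0.085 ± 0.095 (1416982_at), so the probe sets of Foxo1 disagreed in size and sign. By the array maker's naming, an _s_at probe set can match transcripts of further genes. Without a block the leading probe set gave -0.55 ± 0.38, and without DMSO 5 it gave -0.25 ± 0.13.

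Foxo3 was bright on all arrays and changed little. Its leading probe set 1434831_a_at read 8.89, 8.79, 8.77 and 8.31 on DMSO 2 to 5, 8.85 and 8.68 under Dactolisib, and 8.52 and 8.79 under Dasatinib. Both drugs overlapped DMSO, and the low arrays were those of set C. The group means, 8.77 ± 0.13 (SD, n = 2) for Dactolisib, 8.69 ± 0.26 (SD, n = 4) for DMSO and 8.65 ± 0.19 (SD, n = 2) for Dasatinib, lay within their spread. Within sets the difference under Dactolisib was -0.037 ± 0.085 (95% interval -0.24 to 0.16), and the other 2 probe sets gave -0.13 and -0.015.

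Foxo4 gave an unclear picture. Its leading probe set 1456753_at read 6.61, 6.57, 6.55 and 6.14 on DMSO 2 to 5, 6.87 and 6.63 under Dactolisib, and 6.34 and 6.63 under Dasatinib. Both Dactolisib arrays lay above the highest DMSO array, the second by little. The mean was 6.75 ± 0.17 (SD, n = 2) for Dactolisib, 6.49 ± 0.20 (SD, n = 2) for Dasatinib and 6.47 ± 0.22 (SD, n = 4) for DMSO, and the latter pair differed by less than its spread. The difference of Dactolisib from DMSO within sets was 0.19 ± 0.087, made of 0.29 on Dactolisib 1 and 0.062 on Dactolisib 2. The other probe set, 1422149_at, gave 0.025 ± 0.092 and followed the leading one weakly (r = 0.16 over 8 arrays).

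Foxk1, an mTOR-controlled repressor of autophagy genes, was higher than DMSO of the own set on both Dactolisib arrays in all 3 of its probe sets. The leading one, 1434655_at, read 7.36, 7.04, 7.08 and 7.11 on DMSO 2 to 5, 7.66 and 7.26 under Dactolisib, and 6.91 and 6.87 under Dasatinib. Dactolisib 1 was the highest array, Dactolisib 2 fell within the DMSO range, and both Dasatinib arrays lay below every DMSO array. The order of means was Dactolisib at 7.46 ± 0.28 (SD, n = 2), DMSO at 7.15 ± 0.15 (SD, n = 4) and Dasatinib at 6.89 ± 0.027 (SD, n = 2). Dactolisib and DMSO overlapped, and Dasatinib did not overlap with either.

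Within sets the leading Foxk1 difference under Dactolisib was 0.35 ± 0.11, a fold of 1.27, and the other 2 probe sets gave 0.28 ± 0.090 (1451752_at) and 0.40 ± 0.10 (1421759_a_at, above background on 4 arrays). The difference was 0.44 on Dactolisib 1 and 0.23 on Dactolisib 2, while DMSO 2 and DMSO 4 differed by 0.28. Only the first of these exceeded the gap between DMSO arrays of set A.

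Foxk2 differed by less. Its leading probe set 1452753_at read 6.31, 6.29, 6.26 and 6.74 on DMSO 2 to 5, 6.45 and 6.51 under Dactolisib, and 6.61 and 6.29 under Dasatinib. The arrays of set C were the highest, and within sets A and B the Dactolisib arrays were. The means of 6.48 ± 0.042 (SD, n = 2) for Dactolisib, 6.45 ± 0.23 (SD, n = 2) for Dasatinib and 6.40 ± 0.23 (SD, n = 4) for DMSO lay within their spread. Within sets the difference under Dactolisib was 0.18 ± 0.077, and 0.29 ± 0.076 in 1428354_at, whose Dactolisib arrays (6.01 and 5.954) lay above all DMSO arrays (5.69, 5.69, 5.71 and 5.946 on DMSO 2 to 5), the second by little. The 3 remaining probe sets gave 0.11, -0.16 and 0.016.

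**Figure D2:**
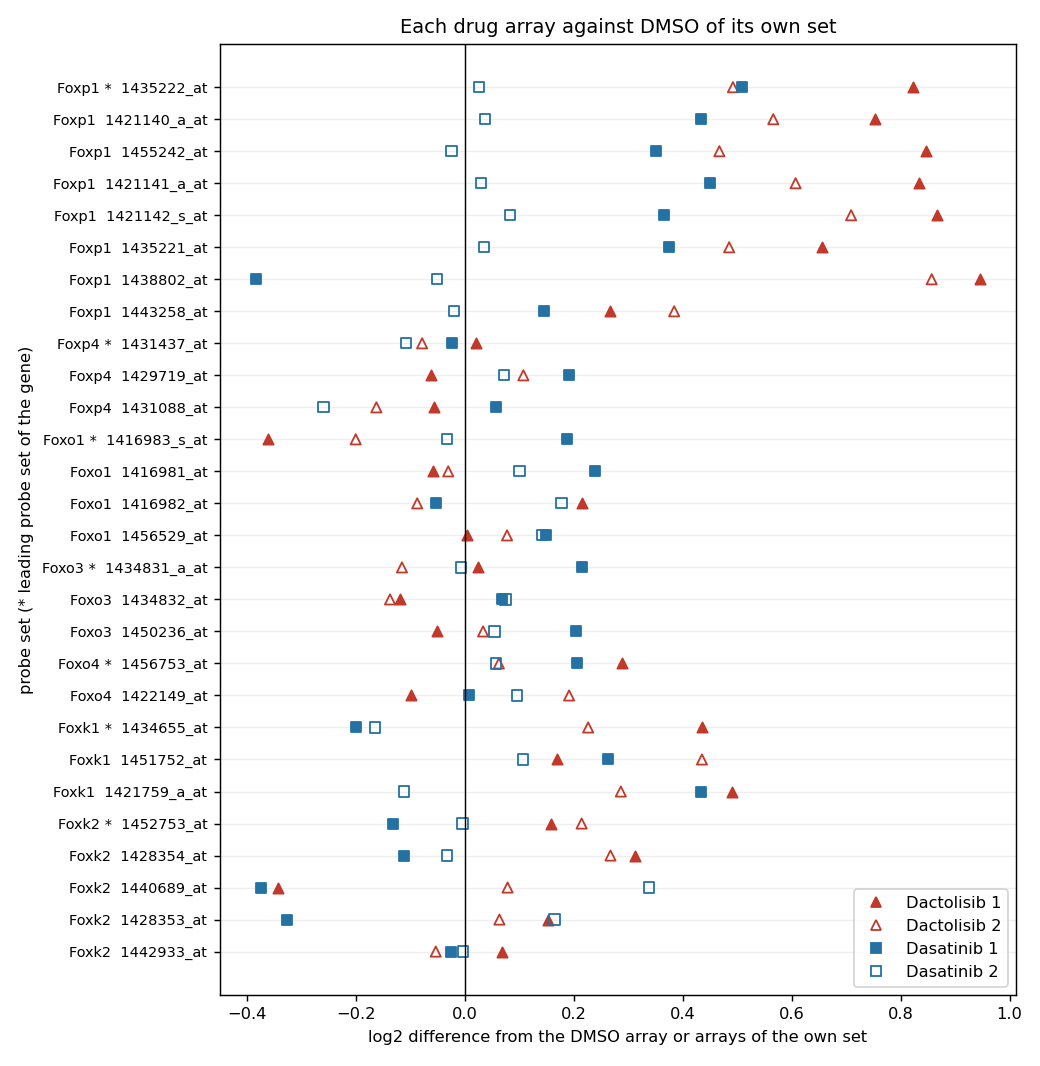
Log2 difference (x axis) of each drug array from the DMSO array or arrays of its own set, for every forkhead probe set (y axis, an asterisk marks the leading one of a gene). Triangles are the Dactolisib arrays and squares the Dasatinib arrays. Foxp1 probe sets lie at 0.27 to 0.95 on the Dactolisib arrays, and Foxk1 probe sets at 0.17 to 0.49.

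Counted over the members, 16 of 28 probe sets were higher on both Dactolisib arrays than DMSO of the own set (32.1% of all tested probe sets were) and 4 were lower (33.5%). The 16 were all 8 of Foxp1, all 3 of Foxk1, 3 of Foxk2 and 1 each of Foxo1 and Foxo4. Both Dactolisib arrays were above every DMSO array in 12 probe sets (background 11.4%), 8 of Foxp1, 2 of Foxk1 and 1 each of Foxo4 and Foxk2, and below every DMSO array in 1 (9.58%). At an adjusted p under 0.05 within sets, 7 of 28 were higher, all of Foxp1, beside 2.19% of all probe sets, and 0 were lower, beside 4.2%. Without a block 0 were called in either direction, as over all probe sets (0%), and at an unadjusted p under 0.05, 8 were higher (2.89% of all), of Foxp1 and Foxk1, and 0 lower (3.35%). At that unadjusted threshold within sets, 13 were higher (9.68% of all), of Foxp1, Foxk1 and Foxk2, and 1, of Foxo1, was lower (13.9%). The median difference of the 28 was 0.15 within sets, beside 0.003 over all probe sets. As the genes were chosen on this comparison, nothing is read from these counts.

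Without Dactolisib 1, without Dactolisib 2 or without DMSO 3, the count within sets was 0. In these settings 0 probe sets of the whole array were called, so the loss says nothing about the members. The leading Foxp1 difference then was 0.49, 0.82 and 0.82.

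**Figure D3:**
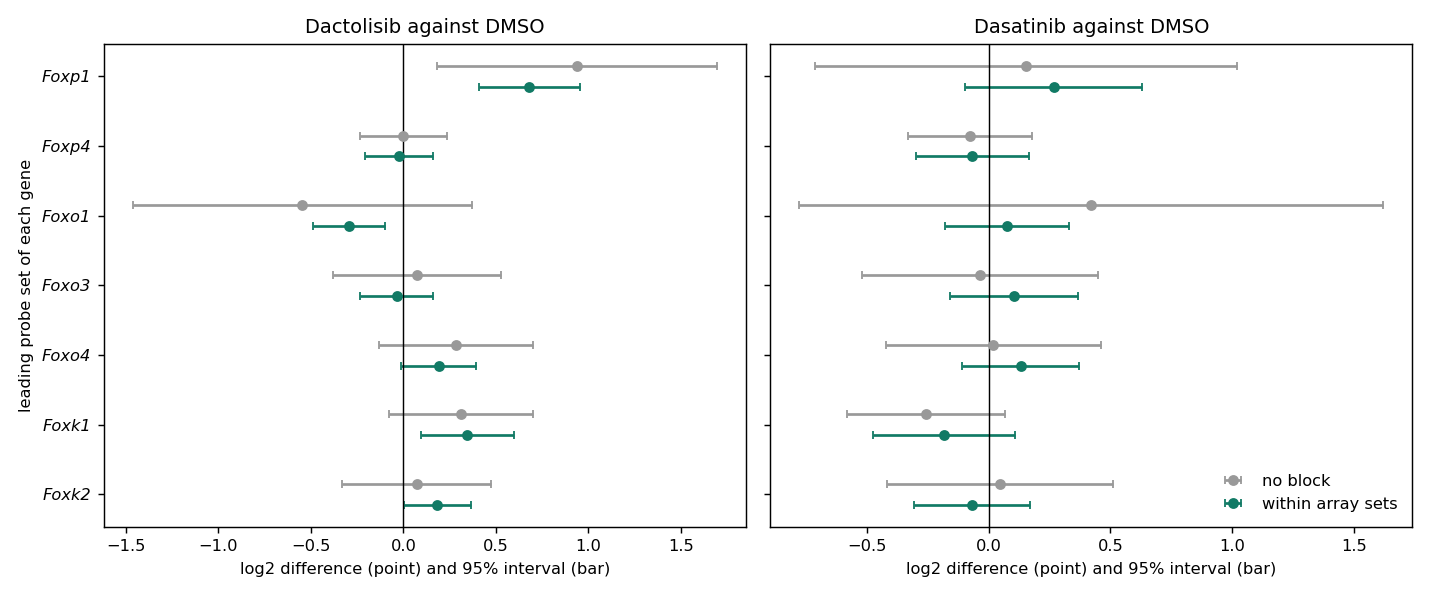
Log2 difference from DMSO (points) with its 95% interval (bars) for the leading probe set of each gene (y axis), under Dactolisib on the left and Dasatinib on the right, without a block (grey) and within array sets (green). Under Dasatinib every interval includes 0. The intervals under Dactolisib describe genes chosen on that comparison, and the leading Foxp1 point lies at 0.94 without a block and 0.68 within sets.

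Dasatinib was tested against DMSO, and none of the 28 probe sets passed. In limma none of them had an adjusted p under 0.05 or an unadjusted p under 0.05, without a block or within sets. Over all 30025 probe sets 0 passed the adjusted threshold (0%), and 52 and 58 (0.173% and 0.193%) were higher and lower at an unadjusted p under 0.05 without a block, against 638 and 826 (2.12% and 2.75%) within sets. The adjusted p of the members lay between 0.85 and 1. Both Dasatinib arrays were higher than DMSO of the own set in 13 of 28 probe sets (background 22.3%) and lower in 6 (24.9%), and they were above every DMSO array in 0 (1.9%).

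For Foxp1 the Dasatinib difference within sets was 0.27 ± 0.15 (95% interval -0.096 to 0.63, limma adjusted p = 0.85), from 0.51 on Dasatinib 1 and 0.025 on Dasatinib 2. Here the dim Foxp1 probe set 1438802_at went the other way, with -0.22 ± 0.12, from -0.38 and -0.052. These Foxp1 probe sets, both higher under Dactolisib, thus gave opposite signs under Dasatinib, neither past the threshold. The -0.38 is the difference of Dasatinib 1 from DMSO 5, and both arrays lay below background in 1438802_at. All Foxp1 probe sets except 1438802_at gave positive values within sets, from 0.062 (1443258_at) to 0.27 (the leading one), none past the threshold. The opposite sign thus rests on 1438802_at alone. Foxk1 gave -0.18 ± 0.12 in its leading probe set (95% interval -0.47 to 0.11), the only member probe set with both Dasatinib arrays below every DMSO array (background 2.4%), and 0.18 ± 0.10 in 1451752_at. Foxo1, Foxo3 and Foxo4 gave 0.077 ± 0.11, 0.10 ± 0.11 and 0.13 ± 0.10, Foxk2 -0.069 ± 0.099 and Foxp4 -0.067 ± 0.097. The upper ends of the 95% intervals were 0.33 for Foxo1, 0.36 for Foxo3, 0.37 for Foxo4, 0.17 for Foxk2 and 0.16 for Foxp4. Without a block both drugs were compared with the same 4 DMSO arrays, and within sets they share DMSO 3.

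The drugs were also set against each other at the same dose and time. On the arrays of set B, which hold each treatment once, Dactolisib exceeded Dasatinib by 0.47 in leading Foxp1 signal, 0.91 in 1438802_at, 0.39 in Foxk1 and 0.22 in Foxk2, and was lower by -0.17 in Foxo1. In the fit of all 8 arrays within sets the differences were 0.43 ± 0.16, 1.06 ± 0.13, 0.48 ± 0.13, 0.24 ± 0.10 and -0.31 ± 0.12 in the same order. For Foxo3, Foxo4 and Foxp4 they were -0.13 ± 0.11, 0.041 ± 0.11 and 0.039 ± 0.10. No member was called at an adjusted p under 0.05 (0% of all). At an unadjusted p under 0.05, 11 were higher under Dactolisib (background 5.35%), of Foxp1, Foxk1 and Foxk2, and 1, of Foxo1, was lower (8.93%). On the 4 drug arrays alone without a block, 8 were higher (0.696%), of Foxp1 and Foxk1, and 0 lower (1.07%). Dactolisib against Dasatinib was also used in the choice.

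Cell type markers are given on the same arrays. On both Dactolisib arrays, relative to DMSO of the own set, 9 of 12 monocyte and macrophage markers were lower and 2 higher, 12 of 16 granulocyte markers were lower and 3 higher, and 7 of 17 epithelial markers were lower and 0 higher, beside 33.5% lower and 32.1% higher over all probe sets. Of 10 lymphocyte markers 4 were higher and 1 lower, with a summed level of 8.46 to 8.71 over the 8 arrays. Ms4a1 and Cd79a, among the 4 higher, and Cd3g, the lower one, were above background on no array. On both Dasatinib arrays 6 of 10 fibroblast markers were lower and 0 higher, and 5 of 17 epithelial markers were higher and 0 lower, beside 24.9% lower and 22.3% higher over all probe sets. The median of the fibroblast markers within sets under Dasatinib was -0.50, and 0 of 9 tested passed an adjusted p of 0.05. At an unadjusted p under 0.05, 5 were lower, beside 2.75% of all probe sets. By array, the median difference of the 10 fibroblast markers from DMSO of the own set was -0.512 on Dasatinib 1 and -0.193 on Dasatinib 2. Only 4 of the 10 were above background on all 8 arrays. Of 16 granulocyte markers 4 were higher and 4 lower under Dasatinib. The lowest p-values there belonged to Col3a1 (-0.86 ± 0.15) and Bgn (-0.70 ± 0.13) among fibroblast markers and to Ceacam10 (-1.15 ± 0.41) and Ngp (-1.16 ± 0.43) among granulocyte markers, each at a limma adjusted p of 0.85. The values of Ceacam10 and Ngp rest mostly on set C. Ceacam10 read 5.63 on Dasatinib 1 and 7.80 on DMSO 5, but 6.02 on Dasatinib 2 and 6.13 on DMSO 3. Ngp read 6.695 and 8.94 on the first pair, and 8.90 and 8.97 on the second. Under Dactolisib within sets, Mmp9, a granule protease of neutrophils, fell by 0.62 on the log2 scale (SE 0.081, limma adjusted p = 0.0119). Cx3cr1, a receptor of monocytes and macrophages, fell there by 0.75 (SE 0.084, adjusted p = 0.00941). Under Dasatinib within sets Mmp9 differed by 0.076 ± 0.112 and Cx3cr1 by 0.145 ± 0.115, neither past the threshold. Both genes were picked after their values were seen. The 3′ minus 5′ signal of Actb, a sign of RNA integrity, was 0.026 to 0.082 on the DMSO arrays, 0.082 and 0.153 on the Dactolisib arrays and 0.057 and 0.112 on the Dasatinib arrays. That of Gapdh was -0.102 to -0.038 on the DMSO arrays, -0.043 and -0.084 on the Dactolisib arrays and -0.193 and -0.115 on the Dasatinib arrays, so the genes did not move together. The part of these values in the forkhead values was not tested.

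**Figure D4:**
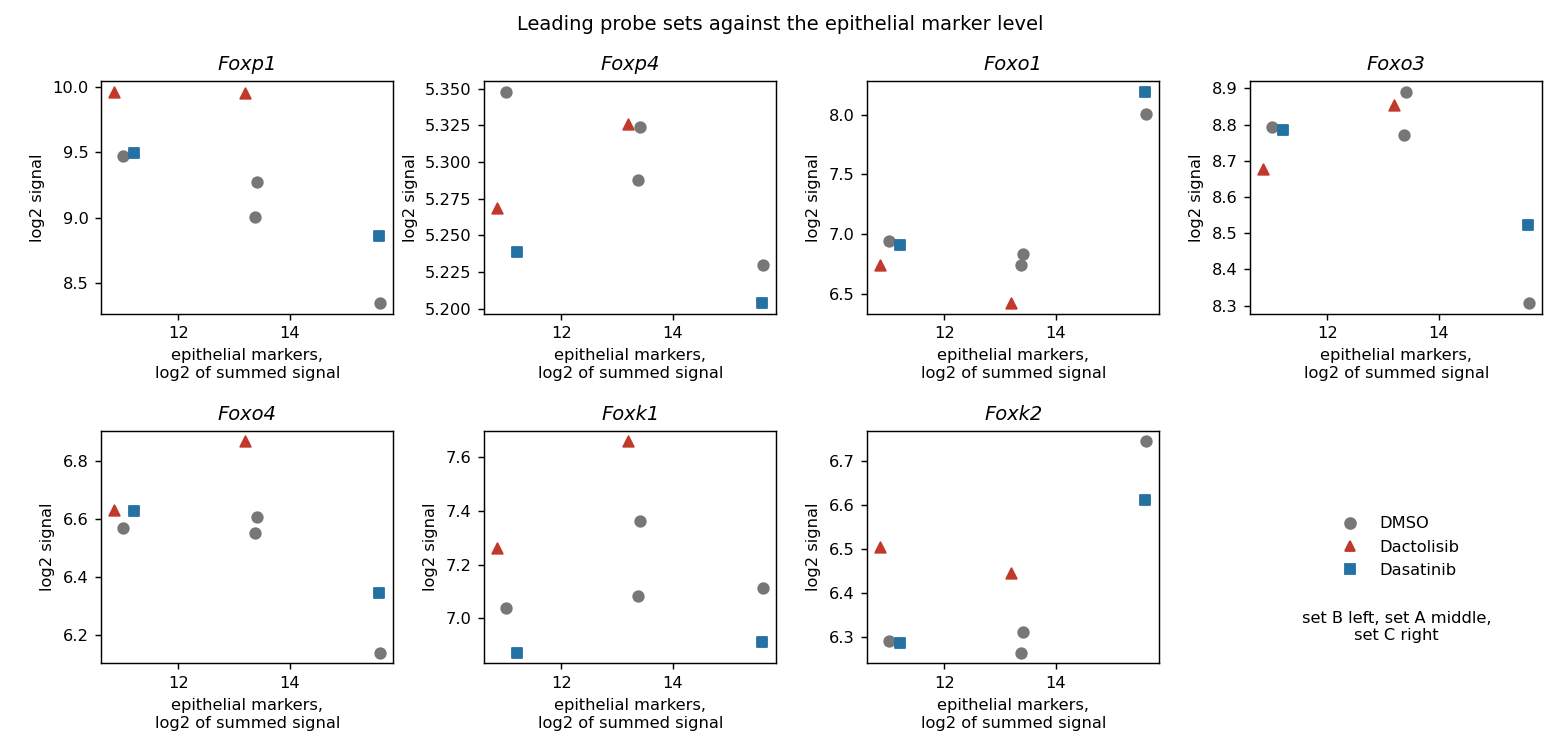
Log2 signal of the leading probe set of each gene (y axis) against the summed level of 17 epithelial markers (x axis, log2 of the summed signal) on the 8 arrays, coloured by treatment. Set B lies to the left, set A in the middle and set C to the right. Foxo1 and Foxk2 are highest in set C, and Foxp1, Foxo3 and Foxo4 lowest on DMSO 5.

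The share of variance that lay between the sets was 95.4% for the leading Foxo1 probe set, 85.4% for Foxo3, 75.3% for Foxo4 and 73.5% for Foxk2. It was 64.1% for Foxp1, 59.6% for Foxp4 and 44.0% for Foxk1. These shares are a description, as the sets were found on the same arrays and no share over all genes was computed. Set C holds no Dactolisib array and set A no Dasatinib array, so the shares also take in treatment. Of 14238 genes, those that ran most like a member over the 8 arrays were Hip1r (r = 0.992), Fbxo6 and Fchsd2 (both 0.99) for Foxp1. For Foxo1 they were C1qb (0.996), a complement gene of macrophages, Cinp and Slc25a1 (both 0.994). Eif2ak1 (0.993) led for Foxo3, with Dlgap3 and Rnf167 (both 0.989). Kdm5b, 1500009C09Rik (both 0.981) and Btf3l4 (0.979) led for Foxo4, and Tcf25 (0.958), Bach2 (0.951) and Dtnb (0.939) for Foxk1. Med22 (0.984), Pgls (0.981) and Pi4k2b (0.979) led for Foxk2. The highest for Foxp4 were lower, at 0.915 (Tmem120a), 0.913 (Derl1) and 0.91 (4930545H06Rik). These 8 arrays share the sets and treatments, and the correlations are a description.

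The genes around the members were then counted by lists, with a gene read from its leading probe set. These lists were written with earlier results on FoxO targets in the same arrays known, so they are no separate support for a direction. Of 39 tested FoxO targets, 9 were higher and 3 lower within sets under Dactolisib at a limma adjusted p under 0.05, beside 2.24% and 4.66% of all genes, and the median of the list was 0.11 beside -0.002 over all genes. The higher ones were Ulk1 and Gabarapl1 of autophagy, the mitophagy kinase Pink1, the insulin receptor substrate Irs2, the cell cycle genes Ccng2 and Gadd45b, the apoptosis gene Bbc3, Cited2 and the interleukin receptor Il7r. Ulk1 differed by 0.61 ± 0.084 (adjusted p = 0.0138) and Irs2 by 0.48 ± 0.081 (adjusted p = 0.021). The lower ones were catalase, Cat, at -0.77 ± 0.083 (adjusted p = 0.00941), the cyclin Ccnd2 at -0.59 ± 0.093 (adjusted p = 0.0181) and the repressor Bcl6 at -0.42 ± 0.078 (adjusted p = 0.0269). The list was not split by whether FoxO proteins switch a target on or repress it, and FoxO activity was not tested.

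**Figure D5:**
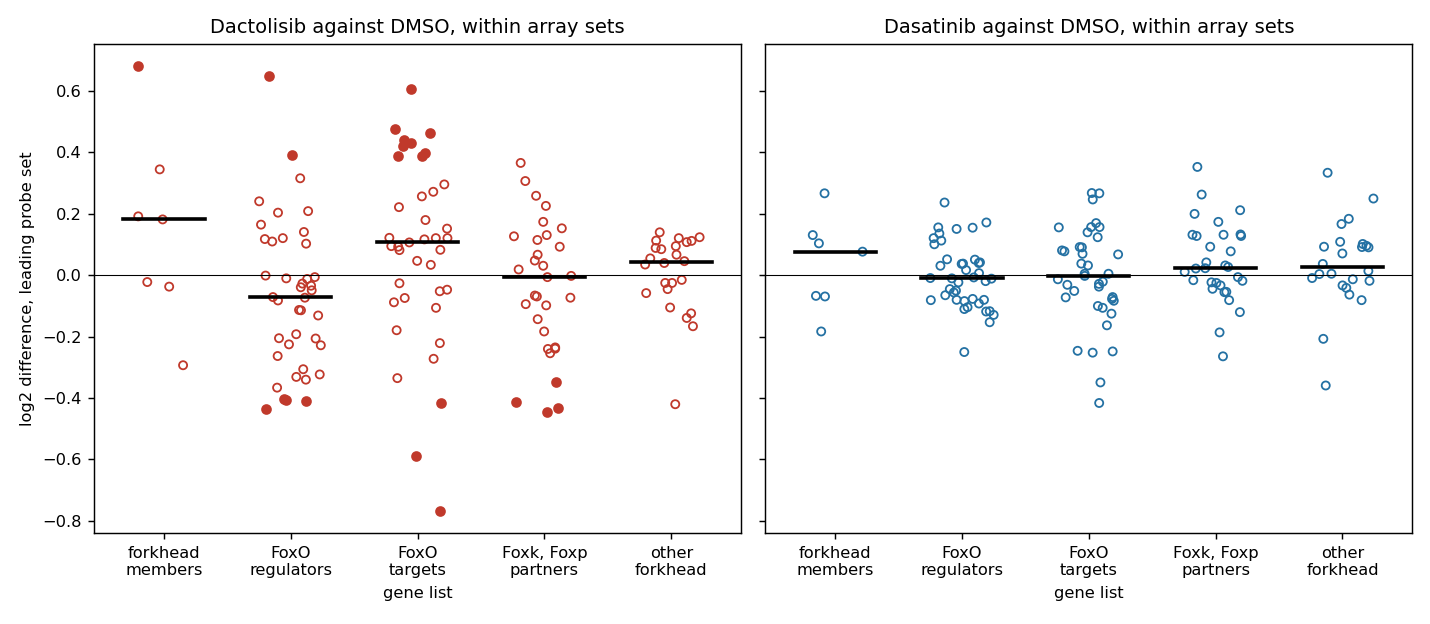
Log2 difference from DMSO within array sets (y axis) of the leading probe set of each tested gene, by gene list (x axis), under Dactolisib on the left and Dasatinib on the right. Filled points passed an adjusted p of 0.05 and black bars are list medians. Filled points appear only under Dactolisib, 12 of them among the FoxO targets and 0 among the other forkhead genes.

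FoxO regulators are the enzymes and carriers that modify or hold FoxO proteins. Of 41 tested, 2 were higher and 4 lower within sets under Dactolisib, beside 2.24% and 4.66% of all genes. The deacetylase Sirt1 was higher by 0.65 ± 0.089 (limma adjusted p = 0.0136) and the Akt-activating kinase Pdpk1 by 0.39 (adjusted p = 0.034). The lower ones were Ywhag, a phosphoserine-binding adaptor that retains FoxO proteins in the cytoplasm, at -0.43 ± 0.082 (adjusted p = 0.0271), the kinases Stk4 and Mapk9 and the arginine methyltransferase Prmt1. The list's median was -0.071. Of 31 tested partners of Foxk and Foxp proteins 0 were higher and 4 lower, beside the same 2.24% and 4.66% of all genes. The lower ones were Srf at -0.45 ± 0.080 (limma adjusted p = 0.0236), the deacetylase Hdac1 at -0.43 ± 0.080 (adjusted p = 0.0264), Nfatc3 and the corepressor Ctbp2. The median of this list was -0.006. Of the 31 other forkhead genes 24 were tested and 0 passed in either direction, with a median of 0.043. Foxd4, at -0.42 ± 0.11, was the 1 lower at an unadjusted p under 0.05, beside 13.9% of all probe sets. Without a block, and under Dasatinib in both fits, 0 genes of these 4 lists passed. At an unadjusted p under 0.05 the FoxO targets without a block counted 7 higher and 2 lower under Dactolisib, beside 2.89% and 3.35% of all probe sets. Under Dasatinib they counted 0 in both fits, beside 0.173% higher and 0.193% lower without a block and 2.12% and 2.75% within sets. The lowest p-values under Dasatinib within sets belonged to Cat and Bnip3 among the targets, Sirt1 and Sfn among the regulators, Kdm1b and Nfatc1 among the partners, and Foxl1 and Foxq1 among the other forkhead genes, each at a limma adjusted p of 0.85.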

How the data were processed

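RNA of Gr-MDSCs was measured on 8 Affymetrix Mouse Genome arrays, 1 per sample. The authors deposited log2 signals of 45101 probe sets, and these values were used as they are. The submitters' processing notes name MAS5 and the study's methods the oligo package, and the labels name Trizol and the methods RNeasy, so the summary and the extraction are not settled. Array titles gave the groups, because a second label of the Dasatinib samples names Dactolisib. Array medians lay between 4.82 and 4.87. The number of arrays limits the precision.

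Of the probe sets, 34945 have 1 gene in the platform annotation and 932 have several, 9160 have no gene, and 64 are controls. RefSeq held the gene ID of 34741, and 0 symbols changed. The upper 66.7% of non-control probe sets by mean log2 signal, 30025 covering 14238 genes, were tested by linear models with moderated variance in limma 3.58.1 (R 4.3.3). P-values were adjusted over all of them by Benjamini-Hochberg, at a threshold of 0.05. Each comparison was fitted on the arrays of its groups, without a block and with the array set as a block. The block fit of a drug against DMSO has 2 residual degrees of freedom. The comparison of the drugs within sets used all 8 arrays. Sets came from average linkage on 1 minus Pearson r, split into 3, and are defined by the data. Correlations and promoter matches were computed in Python 3.11.15.

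The members, the lists and the sets were chosen with earlier results of these data known. Named were all members with every single-gene probe set, up to 4 genes of a list with the lowest p for Dactolisib and 2 for Dasatinib within sets, the 2 brightest genes of a marker list, and the 3 genes most like each member. The other list genes that passed were named after their values were seen. Some genes of the lists are not reported here. The fits were tested on simulated data. Alternatives were quantile normalization, 32 added before log2, other filters, a trended and robust prior, all 8 arrays in the unblocked fit, the methods' t-test, the replicate number as a block and each array left out.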

Additional observations from a re-analysis of the deposited data

Results flagged for a closer look

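In each of the 28 forkhead probe sets the highest or lowest of the 4 DMSO arrays was checked for a gap to the others that is large for the range of the group, and 6 probe sets stood out, all through DMSO 5. The leading Foxo1 probe set 1416983_s_at read 8.01 on DMSO 5 (log2 signal) beside 6.74 to 6.95 on the other DMSO arrays, and Foxo1 1416982_at read 6.43 beside 5.52 to 5.57. Foxk2 read 6.74 beside 6.26 to 6.31 in 1452753_at and 5.95 beside 5.69 to 5.71 in 1428354_at. DMSO 5 was low in Foxk1 1451752_at, at 5.95 beside 6.66 to 6.73, and in Foxo4 1456753_at, at 6.14 beside 6.55 to 6.61. Chance alone gives such a gap in about 5% of groups, and probe sets of a gene are not independent. DMSO 5 is the DMSO array of set C, with an epithelial marker level of 15.62 beside 11.003 to 13.41 on the others. Its fibroblast marker level was 11.67 beside 8.91 to 10.81 on the other DMSO arrays. Dasatinib 1, the other array of set C, read 8.19 in Foxo1 1416983_s_at and 6.61 in Foxk2 1452753_at. The part of epithelial and fibroblast RNA in these values was not tested.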

How the results depend on the processing

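Counts of called forkhead probe sets (adjusted p under 0.05) moved in the fits within sets of Dactolisib against DMSO, 7 as reported, and of Dactolisib against Dasatinib, 0 as reported. Against DMSO the count was 11 with 32 added before log2 and 0 to 10 with an array left out, the 0 being without DMSO 3, Dactolisib 1 or Dactolisib 2, where 0 of all probe sets were called, beside 1919 as reported, so these settings say nothing about the members. Against Dasatinib it was 1 with 32 added, 1 with the trended and robust prior and 0 to 1 with an array left out, the 1 being without Dasatinib 2. The cause was not tested. The other settings gave 6 to 10 against DMSO within sets, and every count without a block and for Dasatinib against DMSO was 0, the methods' t-test included (1890 of all probe sets at its unadjusted threshold for Dactolisib against DMSO, 0 after Benjamini-Hochberg adjustment).

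For Dasatinib against DMSO the sign turned with an array left out. Without a block Foxo3 (-0.037) became 0.03 without DMSO 2 and 0.095 without Dasatinib 1, Foxk2 (0.046) became -3e-04 without DMSO 4 and -0.12 without Dasatinib 1, Foxp1 (0.15) became -0.072 without DMSO 5 and -0.17 without Dasatinib 2, Foxo4 (0.019) became -0.09 and -0.12 in the same settings, and Foxo1 (0.42) became -0.22 without Dasatinib 1. Within sets Foxo1 became -0.034 and Foxo3 -0.0069 without DMSO 5 or without Dasatinib 1. The ranges were -0.17 to 0.48 for Foxp1, -0.22 to 1.06 for Foxo1, -0.17 to 0.095 for Foxo3, -0.12 to 0.16 for Foxo4 and -0.12 to 0.21 for Foxk2 without a block, and -0.034 to 0.19 for Foxo1 and -0.0069 to 0.22 for Foxo3 within sets. In all, 515 values of single genes held, 12 moved by more than 1 SD of DMSO and 13 turned in sign. In the fits of Dasatinib against DMSO, a value held if its sign and its call at an adjusted p of 0.05 stayed. The size of the change was not checked there, so 1.06 beside 0.42 for Foxo1 without a block counts as held. For Dactolisib the sign was checked only where the reported value passed an adjusted p of 0.05. For differences on single arrays the sign was not checked. Values that held can thus differ in sign. Foxo3 in Dactolisib against Dasatinib gave 0.11 without a block and -0.11 on the arrays of set B.

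Only the comparison of the drugs shares 2 replicate numbers, and nothing ties equal numbers to a mouse or day. With the replicate number as a block, 0 forkhead probe sets were called, as without it.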
